A study of Mus musculus with 15 samples.

Results

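TAF-el4 and TAF-tib6 are mouse fibroblast sources that the labels set on opposite sides, TAF-el4 as resistant and TAF-tib6 as sensitive, and 6 of the 15 arrays of the series (3 per source) compare them over 31230 genes. The arrays were picked by their titles rather than by a measured value. Earlier results of these data were known when the arrays and the gene lists below were chosen. Each array carried Cy5-labelled fibroblast RNA beside Cy3-labelled Stratagene Universal Mouse Reference RNA, in the same dye orientation throughout. TAF is taken to mean tumour-associated fibroblasts, since the series title concerns fibroblasts of tumours refractory to treatment against VEGF, the growth factor that drives blood vessel growth. EL4 is a mouse T-cell lymphoma line, while the sources used here do not give the origin of TAF-tib6, the strain, the age or the passage. The other 9 arrays hold NSF (sensitive) and TAF-tib42 and TAF-tib48 (resistant), 3 each, and serve here as points of comparison. Whether the arrays of a source stand for separate cultures is not stated, so a p-value sets a difference against array-to-array spread that may be technical only.

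Fibroblasts lay down and remodel the extracellular matrix, and those of tumours also release chemokines, growth factors and proteases that act on tumour, immune and blood vessel cells. Among these factors are VEGF itself and the PDGF ligands; PDGF-C, the product of Pdgfc, is the factor for which the study of these fibroblasts is known. Serum growth factors acting through the ERK kinases switch on a first wave of transcription factors, the immediate early genes, while inflammatory signals acting through NF-kappaB switch on chemokines and acute phase genes.

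A level below is the log2 ratio of a source to the reference RNA, and a difference is the level in TAF-el4 minus that in TAF-tib6, so a difference of 1 is a 2-fold higher level in TAF-el4. A gene was called, and is said to have risen or fallen in TAF-el4, at a Benjamini-Hochberg adjusted p under 0.05 in a limma fit of all 15 arrays. Standard errors (SE) are those of the fit, with 3 arrays in each source unless a dropped array is named.

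Of the 31230 genes, 6432 were called, a share of 20.6%. TAF-el4 was higher in 3546 of them (11.4% of genes tested) and lower in 2886 (9.24%). Counts of rises and falls in the lists below are to be read against these shares, and a count near them says nothing particular about a list. Most of these differences were small: 5812 called genes differed by less than 1.5-fold, and the median size of a called difference was 0.26. A difference of at least 2-fold was found for 150 genes, 73 higher and 77 lower in TAF-el4, all of them called and all with no overlap between the 3 arrays of one source and the 3 of the other. Such a lack of overlap was common, found for 11616 of all genes tested (37.2%). The offset of 50 added to the intensities draws dim genes toward no change. The scanner software's own ratio, which lacks that offset and also differs in background subtraction and normalisation, put 306 called genes at 2-fold or more. At 4-fold or more, 4 genes were higher and 13 lower. The median difference over all genes was 0.003, which the normalisation of each array holds near 0, so all differences are relative to the array as a whole.

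The arrays of a source resembled each other closely. Over genes, which are not independent replicates, log2 ratios correlated at 0.980 to 0.988 among TAF-el4 arrays, at 0.978 to 0.983 among TAF-tib6 arrays, and at 0.892 to 0.917 between them. The median SD of a gene was 0.047 in TAF-el4 and 0.053 in TAF-tib6. Median Cy5 intensity lay between 174.7 and 244.3 on these 6 arrays over a median local background of 52 to 54. By slide number the 15 arrays fall into 3 runs of consecutive slides, and no run held both TAF-el4 and TAF-tib6. With the run as a block, the comparison rests on TAF-tib48, which lies in 2 runs. Its array 1 shared a run with TAF-el4 array 3, and its arrays 2 and 3 shared the run of TAF-tib6. That fit called 1720 genes, 1055 higher and 665 lower, among them 145 of the 150 that differed 2-fold or more. Within the 6 arrays, slide run and source cannot be told apart for any gene, whether or not it kept its call in that fit.

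**Figure D1:**
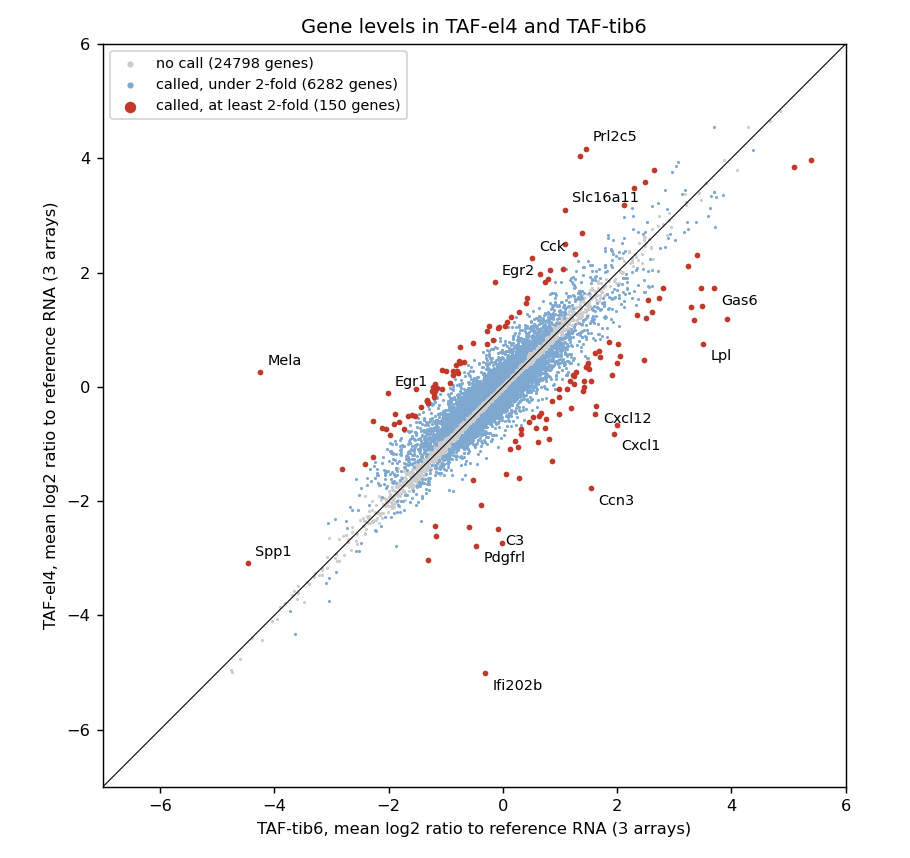
Mean log2 ratio to the reference RNA in TAF-tib6 (horizontal) and TAF-el4 (vertical), 3 arrays each, for 31230 genes; the line marks equal levels. The 150 genes in red differ at least 2-fold, led by Mela above the line and Ifi202b below it.

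Both sources carried the fibroblast genes of a fixed list of 12 markers. The Cy5 signal was over 10 times its local background for 9 of them in TAF-el4 and 10 in TAF-tib6. The lowest was Fap, the fibroblast activation protein, at 1.69 times its background in TAF-el4 and 1.75 times in TAF-tib6. Twist2, a mesenchymal transcription factor, was at 7.38 and 9.66 times, and the collagen receptor Ddr2 at 9.67 and 10.9 times. Col1a1, Col1a2 and Vim, which encode the type I collagen chains and vimentin, were at the ceiling of the scanner in both, so no difference can be read for them. The list was not uniform between the sources: 2 of 12 markers rose and 4 fell, with a median difference of -0.11.

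Markers of other cells were near background in some lists and well measured in others. In TAF-el4 the signal was over 10 times background for 4 of 9 skeletal muscle markers on the array and 4 of 10 epithelial ones. The same held for 4 of 12 adipocyte, 5 of 15 lymphocyte, 3 of 14 macrophage, 2 of 10 pericyte, 1 of 6 nerve and 0 of 12 endothelial markers. Passing 10 times background was thus not particular to fibroblast markers. All 5 melanocyte markers lay under 5 times background in both sources and none was called. Of the endothelial markers, Pecam1 stood at 2.15 times background in TAF-el4 and 2.44 times in TAF-tib6; the list's summed Cy5 intensity was 2102 to 2160 and 2831 to 2886, a gap that holds the VEGF receptor gene Flt1, described below. For macrophages the sum was 2940 to 2981 in TAF-el4 against 2693 to 2764 in TAF-tib6, with 2 of 14 markers higher and none lower (11.4% and 9.24% of all genes). The lymphocyte sum was 25279 to 26626 against 20907 to 21250, and Thy1 and Sdc1, which fibroblasts can also express, were the 2 members that rose (2 others fell). Thy1 rose by 0.33, and with scaled log ratios its difference was -0.0186. The part of these other cells in the results below was not tested. Among T-cell genes, Cd3d was at 1.96 times background in TAF-el4 and 2.19 times in TAF-tib6, Lck at 2.98 and 3.47 times, and the pan-leukocyte gene Ptprc at 1.77 and 1.86 times. The remaining Cd3 probes were Cd3g, 2.56 and 3.08 times background, and Cd3e, 38.1 and 37.3 times. None of these Cd3 genes, Lck or Ptprc rose in TAF-el4, while Thy1, of the same list, was higher there on both of its probes (0.33 and 0.44). Whether lymphoma RNA was present in TAF-el4 was not tested. In the adipocyte list the sum was 6008 to 6376 against 12752 to 13702, and Lpl, described below, was its one member to differ 2-fold. Of 10 keratinocyte and epithelial markers 1 rose and 2 fell (sums of 3732 to 3934 and 3247 to 3562); the keratin Krt19 rose by 0.84, from 17.1 to 33.8 times background. Of 8 skeletal muscle markers tested 2 rose and none fell (9087 to 10701 and 7213 to 8012), with the actin Acta1 at 159 times background in TAF-el4 and 100.4 times in TAF-tib6. Pericyte and smooth muscle markers gave 3 higher and 1 lower of 10 (40228 to 59584 and 42592 to 46822), and nerve markers 1 higher of 6 (1994 to 2213 and 2129 to 2332).

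The gene furthest above its level in TAF-tib6 was Mela, a gene annotated for a melanoma antigen. It stood at 0.26, 0.28 and 0.25 on the TAF-el4 arrays and at -4.30, -4.25 and -4.19 on the TAF-tib6 arrays. The arrays of each source lay within 0.11 of one another while the sources were 22.7-fold apart (difference 4.504, SE 0.077, adjusted p = 4.52e-17). NSF was as low as TAF-tib6, at -4.45, and TAF-tib42 and TAF-tib48 were as high as TAF-el4, at 0.65 and 0.90. A single probe measured it.

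The proliferins, placental hormones of the prolactin family that act on blood vessel growth, came next. Prl2c5 read 4.13, 4.16 and 4.22 in TAF-el4 and 1.30, 1.62 and 1.43 in TAF-tib6, which is 6.57-fold higher (SE 0.137, adjusted p = 1.4e-10). Prl2c3 was 6.42-fold higher, and 2 further probes of it differed by 2.21 and 2.13. These genes are near copies of each other and the probes may read several of them, so they count as one signal. The other 4 proliferin-like genes tested were not called. The order over the sources was not that of the labels: Prl2c5 averaged 3.85 in TAF-tib48, 1.55 in NSF and -1.39 in TAF-tib42.

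Slc16a11, a member of the monocarboxylate transporter family, was at 3.07, 3.06 and 3.18 in TAF-el4 and at 1.07, 1.15 and 1.05 in TAF-tib6. The 4.04-fold gap (SE 0.065, adjusted p = 5.4e-13) was many times the spread between arrays. Of the 12 transporters of that family tested, 3 rose and 2 fell. Slc16a1, which carries lactate and pyruvate, fell by 0.74 (SE 0.064, adjusted p = 1.1e-07), though 1 of its 3 probes differed by only -0.05. Slc16a3, the lactate exporter of glycolytic cells, rose by 0.32 and lost its call when the log ratios of the arrays were scaled to a common spread and with slide run as a block (adjusted p = 0.22 in the latter).

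Cck, which encodes the gut and brain peptide cholecystokinin, was set apart in TAF-el4 from every other source. It stood at 2.19, 2.16 and 2.40 there, at 0.52, 0.55 and 0.46 in TAF-tib6, and at 0.22 to 0.40 in the remaining sources. The difference was 1.73 (SE 0.069, adjusted p = 6.6e-12). Has1, a hyaluronan synthase, rose by 1.33 (SE 0.072) from 0.67, 0.63 and 0.65 to 2.09, 1.89 and 1.95. Hmga1, an architectural chromatin protein of dividing cells, rose by 1.38 (SE 0.080), and its levels did not overlap, at -1.49 to -1.42 against -2.87 to -2.76. Spp1, the secreted glycoprotein osteopontin, rose by 1.38 (SE 0.093) but was far below the reference RNA in both, at -3.27 to -2.98 and -4.60 to -4.38.

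**Figure D2:**
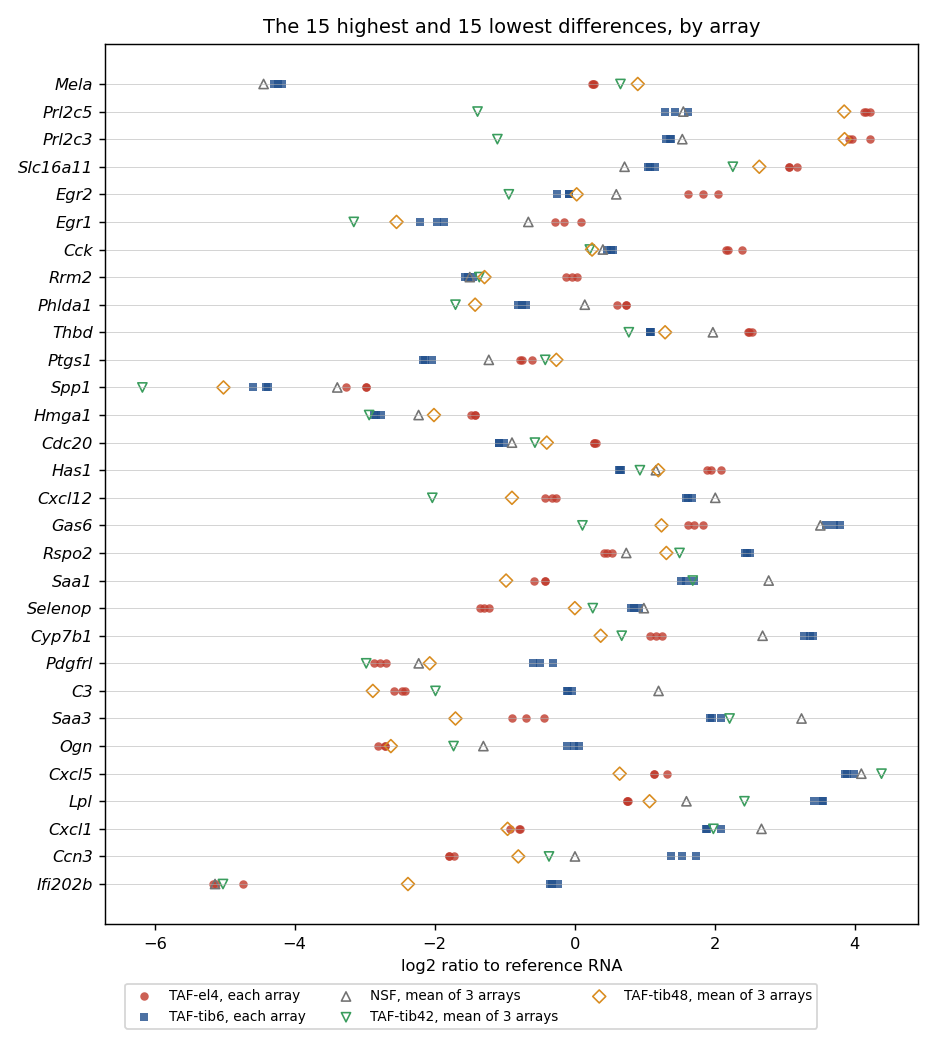
Log2 ratio to the reference RNA of the 15 genes with the highest and the 15 with the lowest differences; filled points are single arrays of TAF-el4 (red) and TAF-tib6 (blue), open points the 3-array means of NSF, TAF-tib42 and TAF-tib48. Arrays of one source cluster tightly, and for Mela the open points split into NSF beside TAF-tib6 and the others beside TAF-el4.

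Genes of cell division were the group that differed most evenly. Of 36 tested genes of the cell cycle and mitosis, 34 rose in TAF-el4 and none fell, against 11.4% and 9.24% of all genes, and their median difference was 0.85 against 0.003 over all genes. The 2 that were not called were also not lower by more than 0.03. Cdc20, which activates the anaphase-promoting complex, read 0.28, 0.27 and 0.30 in TAF-el4 and -1.01, -1.09 and -1.07 in TAF-tib6 (difference 1.34, SE 0.118, adjusted p = 1.5e-07). Cks2, a subunit of the cyclin-dependent kinases, read -0.06, 0.01 and 0.05 against -1.22, -1.25 and -1.19. Its 2 probes gave the same difference, 1.22. The centromere histone Cenpa rose by 1.21 (SE 0.115), the mitotic kinesin Kif20a by 1.15 (SE 0.108) and the cyclin Ccnb2 by 1.1005 (SE 0.0975).

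Enzymes of DNA replication and nucleotide supply moved the same way, with 22 of 26 higher, none lower and a median difference of 0.55. Rrm2, the regulated subunit of ribonucleotide reductase, was at -0.12, -0.03 and 0.03 in TAF-el4 and at -1.57, -1.52 and -1.45 in TAF-tib6 (difference 1.47, SE 0.106, adjusted p = 1.4e-08). Its partner subunit Rrm1 rose by 1.01 (SE 0.097). Thymidylate synthase (Tyms) rose by 0.79, the replication-coupled methylation factor Uhrf1 by 0.77 and the helicase subunit Mcm2 by 0.76. With slide run as a block the cell cycle list kept 26 rises at a median of 0.79, while the replication list kept 4 at an unchanged median of 0.55. In that fit the adjusted p was 0.056 for Tyms, 0.10 for Uhrf1 and 0.10 for Mcm2. Fewer dividing cells and less RNA per dividing cell cannot be told apart in RNA from whole cultures.

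Promoters of such genes are known for CCAAT boxes, bound by the factor NF-Y, and for a TTTGAA element near the start site. The stretches below show the 150 bases before the start of 4 genes of these lists that rose, from RefSeq on GRCm38.p6. They run 5′ to 3′ on the strand of the gene, with CCAAT and TTTGAA, each on either strand, in capitals. Cdc20 lies at chr4:118437344-118437493 (minus strand), Ccnb2 at chr9:70421555-70421704 (minus), Cks2 at chr13:51645082-51645231 (plus) and Rrm2 at chr12:24708104-24708253 (plus).
Cdc20: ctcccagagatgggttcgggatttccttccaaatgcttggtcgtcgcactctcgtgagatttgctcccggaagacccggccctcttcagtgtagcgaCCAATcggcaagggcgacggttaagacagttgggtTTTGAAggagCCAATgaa
Ccnb2: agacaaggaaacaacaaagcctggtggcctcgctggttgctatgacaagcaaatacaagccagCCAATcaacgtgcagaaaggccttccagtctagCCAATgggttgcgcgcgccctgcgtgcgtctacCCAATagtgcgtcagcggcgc
Cks2: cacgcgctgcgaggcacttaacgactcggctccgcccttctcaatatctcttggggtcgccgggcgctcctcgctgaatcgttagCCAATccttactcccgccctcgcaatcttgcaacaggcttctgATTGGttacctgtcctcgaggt
Rrm2: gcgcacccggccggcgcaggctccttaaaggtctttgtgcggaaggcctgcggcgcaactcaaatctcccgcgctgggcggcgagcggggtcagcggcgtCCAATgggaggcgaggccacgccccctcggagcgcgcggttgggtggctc
Within 250 bases before the start, CCAAT on either strand was present in 22 of 29 promoters of 28 genes of the cell cycle list (75.9%) and in 17 of 28 promoters of 23 genes of the replication list (60.7%). Over all 32851 promoters of the RefSeq table the share was 33.9%. TTTGAA on either strand was present in 9 of the 29 cell cycle promoters (31.0%) and in 3 of the 28 replication promoters (10.7%), against 15.99% of all. A match is a description of the letters and does not show a bound factor.

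Of 22 immediate early transcription factors, 14 were higher in TAF-el4 and 1 lower, with a median difference of 0.23. Egr2 stood at 2.04, 1.83 and 1.62 in TAF-el4 and at -0.25, -0.08 and -0.09 in TAF-tib6 (difference 1.97, SE 0.134, adjusted p = 6.4e-09). Egr1 stood at 0.09, -0.15 and -0.29 against -2.21, -1.96 and -1.86 (difference 1.90, SE 0.116, adjusted p = 1.6e-09). Both zinc-finger genes varied more between the TAF-el4 arrays than most genes did, and neither overlapped TAF-tib6. The AP-1 member Fosl1 rose by 0.91 (SE 0.072), from -0.90, -0.87 and -0.85 to 0.05, 0.03 and 0.02. Nr4a1, an orphan nuclear receptor, rose by 0.84 (SE 0.140), and its adjusted p was 0.28 with slide run as a block. Ier2 rose by 1.07 with 1 TAF-tib6 array dropped for a flagged spot, but its second probe differed by 0.03. With slide run as a block 6 of the list stayed higher and none lower.

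Serum response elements of such genes contain the CArG box, the site of serum response factor. The 150 bases before the start of Egr2, the member with the largest difference, hold one match 72 bases from the start, here in capitals (GRCm38.p6, chr10:67537416-67537565, plus strand).
Egr2: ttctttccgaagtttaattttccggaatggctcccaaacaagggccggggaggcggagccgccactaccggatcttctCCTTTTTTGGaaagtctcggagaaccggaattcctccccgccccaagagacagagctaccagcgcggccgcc
Of 21 promoters of 17 genes of the list, 5 held a CArG box in the 250 bases before the start (23.8%), against 1.47% of all promoters.

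Targets and feedback inhibitors of ERK signalling rose in 7 of 18 cases and fell in 1, with 10 not called, and 1 of the rises reached 2-fold. Phlda1, induced by growth factors through ERK, was at 0.74, 0.60 and 0.73 in TAF-el4 and at -0.81, -0.69 and -0.76 in TAF-tib6 (difference 1.44, SE 0.086, adjusted p = 1.2e-09). The EGF receptor ligand Hbegf rose by 0.86 (SE 0.080), the urokinase receptor Plaur by 0.86 (SE 0.057), and the ERK phosphatases Dusp4 by 0.58 (SE 0.057) and Dusp6 by 0.39 (SE 0.0665). Dusp6 was nonetheless far above TAF-tib42 and TAF-tib48 in both sources, at -1.39 to -1.31 and -1.75 to -1.71 against means of -3.49 and -3.01.

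Genes of coagulation and plasminogen activation rose in 9 of 14 cases and fell in 2, with a median of 0.40. Thrombomodulin (Thbd), the endothelial cofactor that turns thrombin toward protein C, read 2.49, 2.48 and 2.53 in TAF-el4 and 1.08, 1.09 and 1.08 in TAF-tib6 (difference 1.42, SE 0.050, adjusted p = 1.7e-12). Serpinb2, an inhibitor of plasminogen activation, rose by 0.99 (SE 0.042), and the activator urokinase (Plau) by 0.85 (SE 0.053). A second probe of Plau differed by 0.05.

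Contractile genes rose in 14 of 21 cases, with 1 lower and a median of 0.29, none of them 2-fold as measured. The smooth muscle actin Acta2 was at the scanner's ceiling on all 3 TAF-el4 arrays, so its difference cannot be read in full. Calponin (Cnn1) read 4.47, 4.53 and 4.66 against 3.78, 3.74 and 3.58 (difference 0.85, SE 0.085). Tropomyosin 2 (Tpm2) rose by 0.61 (SE 0.064) and transgelin (Tagln) by 0.47 (SE 0.061, with 1 saturated TAF-el4 array). Of the list, 3 rose with scaled log ratios and 4 with slide run as a block, and Cnn1, Tpm2 and Tagln lost their calls in the former. TGF-beta genes rose in 8 of 21 cases and fell in 2. Among them were Smad7, the inhibitory Smad that TGF-beta induces (0.75, SE 0.050), the activin subunit Inhba (0.64, SE 0.068) and the matricellular Ccn2 (0.80, SE 0.095, with 1 saturated TAF-el4 array). The list kept 3 rises with scaled log ratios, without Inhba and Ccn2.

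Genes of the oxidative stress response governed by NRF2 were split. Of 21 tested, 11 rose and 5 fell, with a median of 0.23. Nqo1, a quinone reductase, stood at 0.04, 0.05 and 0.07 in TAF-el4 and at -1.27, -1.09 and -1.20 in TAF-tib6 (difference 1.24, SE 0.048, adjusted p = 5.7e-12). Thioredoxin reductase (Txnrd1) rose by 1.16 (SE 0.092), sulfiredoxin (Srxn1) by 0.56 (SE 0.056) and heme oxygenase (Hmox1) by 0.54 (SE 0.045). The mitochondrial superoxide dismutase Sod2 went the other way, at -0.06, -0.02 and -0.02 against 0.95, 0.91 and 0.89. Sod2 is also a known target of NF-kappaB. Heat shock genes rose in 8 of 13 cases and fell in 2, all by less than 2-fold. The mitochondrial chaperonin Hspd1 rose by 0.63 and the stress-induced Hspa1a fell by 0.41. Further probes of Hspa1a differed by -0.50, -0.30 and -0.08. None of the 13 kept its call with slide run as a block.

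Ifi202b, an interferon-inducible gene of the p200 family, was the gene furthest below its level in TAF-tib6. It was at -5.17, -5.13 and -4.74 in TAF-el4 and at -0.32, -0.36 and -0.24 in TAF-tib6, 26.1-fold lower (difference -4.71, SE 0.089, adjusted p = 1.3e-16). Its Cy5 signal in TAF-el4 was dim, 124 to 149 over a local background of 53 to 54. The size of the fold therefore depends on the background correction and the offset. TAF-el4 shared its low level with NSF (-5.14) and TAF-tib42 (-5.03), and TAF-tib48 lay between at -2.38. The p200 family did not move as one: Ifi204 fell by 0.50 and Ifi205 rose by 0.48, and for each a further probe was called in the opposite direction, at 0.31 for Ifi204 and -0.23 for Ifi205. Ifi205 lost its call with scaled log ratios and with slide run as a block. The remaining 3 of the 6 tested were not called.

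Among matrix genes, falls in TAF-el4 outnumbered rises in most lists. Small leucine-rich proteoglycans, which bind collagen fibrils and growth factors, fell in 8 of 12 cases and rose in none, with a median of -0.32. Osteoglycin (Ogn) read -2.71, -2.70 and -2.81 in TAF-el4 and -0.11, -0.01 and 0.06 in TAF-tib6 (difference -2.72, SE 0.142, adjusted p = 2.1e-10). Decorin (Dcn), a binder of TGF-beta and collagen, fell by 1.72 (SE 0.147), from -1.37 to -1.24 in TAF-tib6 to -3.12 to -2.96 in TAF-el4. Asporin (Aspn) fell by 1.72 as well (SE 0.064). Biglycan (Bgn) fell by 0.42. Of the 8, 4 stayed lower with slide run as a block.

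Collagen genes fell in 12 of 21 cases and rose in 1. Col6a1, of the microfibrillar type VI collagen, was at -1.05, -1.10 and -1.11 in TAF-el4 and at 0.11, 0.15 and 0.12 in TAF-tib6 (difference -1.21, SE 0.085, adjusted p = 8.9e-09). Col8a2 fell by 1.12 (SE 0.0755) and Col14a1 by 1.09 (SE 0.149), although a second Col14a1 probe differed by -0.09. The probe of Col3a1, of fibrillar type III collagen, was saturated on all 3 TAF-tib6 arrays and read at least 1.61-fold lower in TAF-el4, while a second Col3a1 probe differed by only -0.40. Col7a1, the anchoring fibril collagen, was the exception, higher by 0.69 (SE 0.057), and lost its call with scaled log ratios.

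Other matrix glycoproteins were divided, with 11 of 30 lower, 5 higher and 14 not called. Ccn3, a matricellular protein that opposes Ccn2 in several settings, stood at -1.80, -1.73 and -1.80 in TAF-el4 and at 1.53, 1.73 and 1.38 in TAF-tib6 (difference -3.32, SE 0.145, adjusted p = 2.0e-11). Its Cy5 signal in TAF-el4 was dim, 107 to 136 over a local background of 52 to 54.5. The fetal fibrillin Fbn2 fell by 1.41 (SE 0.055), periostin (Postn) by 1.25 (SE 0.0745), fibronectin (Fn1) by 0.97 (SE 0.097) and the vessel-restraining thrombospondin Thbs2 by 0.90 (SE 0.074). All 3 probes of Fn1 were lower, by 0.65 to 0.97 in size. The collagen-binding integrin Itga11 fell by 1.43 (SE 0.171), while the fibronectin receptor chains Itga5 and Itgb1 rose by 0.71 (SE 0.049) and 0.46 (SE 0.073). Itgb1 lost its call with scaled log ratios (adjusted p = 0.22) and with slide run as a block (adjusted p = 0.051). Of 14 integrin genes 5 rose and 1 fell. Laminins and other basement membrane genes fell in 5 of 11 cases and rose in 1, with 1 fall left under the block, and collagen cross-linking and processing enzymes fell in 5 of 18 and rose in 4.

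Among matrix proteases and their inhibitors 7 of 20 fell and 2 rose. Gelatinase A (Mmp2) fell by 0.75 and the aggrecanase family member Adamts1 by 1.29 (SE 0.090), from 2.55, 2.48 and 2.47 to 1.26, 1.18 and 1.17. The inhibitor Timp1 rose. Its probe was saturated on all 3 TAF-el4 arrays and was at least 2.14-fold higher there, and its 2 further probes differed by 1.24 and 1.04. Timp3 rose by 0.75 (SE 0.076). Neither Timp rise kept its call with scaled log ratios, and with slide run as a block 2 of the list stayed lower, Mmp2 not among them (adjusted p = 0.14).

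Chemokine genes held several of the largest falls. Cxcl1, which draws neutrophils, was at -0.79, -0.92 and -0.78 in TAF-el4 and at 1.89, 1.87 and 2.09 in TAF-tib6, 6.87-fold lower (difference -2.78, SE 0.117, adjusted p = 1.4e-11). Cxcl5, of the same receptor, was at 1.32, 1.13 and 1.14 against 3.87, 3.90 and 3.99 (difference -2.72, SE 0.239). The neutrophil chemokines had no resistant-sensitive order, since TAF-tib42 averaged 1.98 for Cxcl1 and 4.38 for Cxcl5, beside TAF-tib6, and TAF-tib48 averaged -0.96 and 0.64, beside TAF-el4. Cxcl12, the stromal ligand of CXCR4, was at -0.27, -0.32 and -0.43 against 1.68, 1.59 and 1.62 (difference -1.97, SE 0.174, adjusted p = 1.7e-07), and a second probe differed by -2.70. Cxcl14, a chemokine of skin and stroma, rose by 0.84 (SE 0.077) and lost its call with scaled log ratios. In all, 4 of 11 CXC chemokines fell, 1 rose and 6 were not called.

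The CC chemokines gave 5 lower and 3 higher of 14. Ccl2 and Ccl7, which draw monocytes, fell by 1.52 (SE 0.097) and 1.12 (SE 0.058). Ccl2 stood at 0.45, 0.62 and 0.53 in TAF-el4 and at 2.07, 2.18 and 1.91 in TAF-tib6. The eosinophil chemokine Ccl11 fell by 0.91 and Ccl8 by 0.88. Every one of these 4 kept its call in all alternative settings.

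NF-kappaB, the factor that acts on many of these genes, binds the kappaB site. The 150 bases before the start of Cxcl1, the chemokine with the largest difference, hold overlapping matches on both strands, the nearest 70 bases from the start, here in capitals (GRCm38.p6, chr5:90891095-90891244, plus strand).
Cxcl1: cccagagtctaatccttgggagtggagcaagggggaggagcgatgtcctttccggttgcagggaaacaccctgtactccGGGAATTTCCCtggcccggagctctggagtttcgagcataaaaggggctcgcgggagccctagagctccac
In the 250 bases before the start, 4 of 9 promoters of CXC chemokine genes (44.4%) and 2 of 12 of CC chemokine genes (16.7%) held a kappaB site on either strand, against 3.90% of all promoters.

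Acute phase genes, induced in liver and stroma by inflammatory cytokines, fell in 5 of 15 cases and rose in none. Saa3 was at -0.43, -0.70 and -0.89 in TAF-el4 and at 1.96, 1.94 and 2.09 in TAF-tib6 (difference -2.67, SE 0.255, adjusted p = 4.3e-07). Saa1 fell by 2.09 (SE 0.184); its second probe differed by -0.05, and the serum amyloid genes are similar enough for a probe to read more than one. Ceruloplasmin (Cp) fell by 1.45 (SE 0.084). Haptoglobin (Hp) stood at 1.90, 1.80 and 1.49 against 3.46, 3.51 and 3.43, a difference of -1.73 whose SE of 0.441 was the largest among the genes named, and its adjusted p was 0.82 with slide run as a block.

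Complement genes of the early classical pathway were among those that fell, with 6 of 20 lower and 2 higher. C3, the hub of all complement pathways, read -2.46, -2.42 and -2.58 in TAF-el4 and -0.09, -0.11 and -0.04 in TAF-tib6 (difference -2.40, SE 0.220). A second C3 probe, however, differed by 0.03. The proteases C1s1 and C1ra fell by 1.88 (SE 0.145) and 1.13 (SE 0.149), the former on both of its probes. Cd55, which dissolves the convertases at the cell surface, rose by 0.71 and lost its call with scaled log ratios.

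Cytokines and prostaglandin enzymes, taken as 1 list, moved in both directions. The interleukin 1 antagonist Il1rn fell by 1.32 (SE 0.048) and Il6 by 0.92 (SE 0.100), from 3.65, 3.74 and 3.77 to 2.95, 2.84 and 2.62. A second probe of Il1rn differed by only -0.24. Both cyclooxygenases rose. Ptgs1 was at -0.75, -0.78 and -0.61 in TAF-el4 and at -2.04, -2.14 and -2.17 in TAF-tib6 (difference 1.40, SE 0.053, adjusted p = 3.5e-12), and Ptgs2, the inducible form, was at 2.11, 1.99 and 2.04 against 0.74, 0.86 and 0.86 (difference 1.23, SE 0.078). The macrophage growth factor Csf1 rose by 0.81 (SE 0.062), with its call lost under scaled log ratios. Over the list, 6 of 20 rose and 3 fell.

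Interferon-stimulated genes were slightly lower in TAF-el4, with 9 of 32 fallen, 1 risen and a median of -0.16. The antiviral sensor Dhx58 was at 0.24, -0.12 and -0.18 in TAF-el4 and at 0.44, 0.38 and 0.56 in TAF-tib6 (difference -0.48, SE 0.096), and Stat2, which carries interferon signals to the nucleus, fell by 0.45 (SE 0.0935). These genes were spread widely among the TAF-el4 arrays, and the count of falls depended on single arrays: it was 11 without TAF-el4 array 1, 5 without TAF-el4 array 2 and 4 without TAF-el4 array 3. It was also 5 without TAF-tib6 array 1 and 4 without TAF-tib6 array 3, and 0 with slide run as a block. Genes of antigen presentation fell in 8 of 19 cases and rose in none, among them B2m, the light chain of class I molecules (-0.41, SE 0.065), and the peptide-loading factor Tapbp (-0.49, SE 0.087, with a second probe at -0.16 and not called). None of these 8 kept its call with slide run as a block, and 1 of the list fell with scaled log ratios.

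The PDGF system moved in both directions among its 7 tested genes. The ligands Pdgfc and Pdgfa were higher in TAF-el4. Pdgfc stood at -0.32, -0.29 and -0.19 in TAF-el4 and at -0.82, -0.71 and -0.76 in TAF-tib6, and its 2 probes differed by 0.49 (SE 0.064) and 0.36. Pdgfa stood at 0.96, 0.99 and 0.96 against 0.57, 0.50 and 0.52, with probes differing by 0.44 (SE 0.053) and 0.38. Neither overlapped between the sources, which held for 37.2% of all genes, and both were under 1.5-fold. Pdgfd, the ligand of the beta receptor, fell by 0.35 (SE 0.055). The alpha receptor Pdgfra, which binds PDGF-A and PDGF-C, fell by 0.69 (SE 0.082), from 0.96, 1.02 and 0.90 to 0.33, 0.27 and 0.20, while its second probe differed by -0.07. Pdgfrl, a secreted receptor-like protein, fell most, from -0.49, -0.31 and -0.59 to -2.87, -2.70 and -2.79 (difference -2.32, SE 0.093, adjusted p = 6.6e-12). With slide run as a block the adjusted p was 0.059 for Pdgfc, 0.085 for Pdgfa and 0.063 for Pdgfra.

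Angiogenic ligands fell in 6 of 21 cases and rose in 4. Hgf, the ligand of MET, stood at 1.67, 1.57 and 1.43 in TAF-el4 and at 2.78, 2.85 and 2.56 in TAF-tib6 (difference -1.18, SE 0.107). Angpt2, the antagonist ligand of TIE2, fell by 1.15 (SE 0.149), adrenomedullin (Adm) by 1.07 (SE 0.083) and the lymphatic ligand Vegfd by 0.83 (SE 0.095). The adjusted p of Angpt2 was 0.092 with slide run as a block. Vegfa was close in the sources, at 0.22, 0.24 and 0.10 against 0.41, 0.43 and 0.48; its difference of -0.26 (SE 0.048) was called, but 2 further probes differed by -0.06 and -0.11, and the call was lost with median centring (adjusted p = 0.14). Genes that restrain vessels also fell, in 6 of 13 cases with 2 risen. Flt1, the VEGF receptor that can act as a decoy, was at -0.75, -0.73 and -0.71 against 0.53, 0.60 and 0.63 (difference -1.31, SE 0.053, adjusted p = 6.6e-12), and Col18a1, the source of endostatin, fell by 0.96 (SE 0.085).

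Wnt and BMP modulators differed gene by gene. Rspo2, which amplifies Wnt signals, was at 0.53, 0.46 and 0.43 in TAF-el4 and at 2.44, 2.51 and 2.46 in TAF-tib6, a gap wider than the range of either source (3.9998-fold lower, SE 0.0585, adjusted p = 1.8e-13). The Wnt antagonist Dkk2 fell by 1.89 (SE 0.076) and Sfrp4 by 0.63 (SE 0.049), Of 11 secreted antagonists 5 fell and 1 rose, and of 21 ligands, receptors and targets 5 fell and 4 rose, among the latter Wnt2 by 0.86 (SE 0.064). In the BMP list 6 of 22 fell and 4 rose. The activin and BMP antagonist Fst rose by 1.08 (SE 0.094). None of the 6 falls of that list kept its call with slide run as a block.

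In the IGF axis, Igfbp2 fell by 1.07 (SE 0.077) and Igf1 by 0.41 (SE 0.047), while Igfbp4 rose by 0.97 (SE 0.107), with 3 of 11 lower and 1 higher (9.24% and 11.4% of all genes). Gas6, the ligand of the TAM receptor kinases, was at 1.63, 1.83 and 1.71 in TAF-el4 and at 3.80, 3.71 and 3.59 in TAF-tib6 (difference -1.98, SE 0.194, adjusted p = 5.8e-07). Its receptor Axl was higher where Gas6 was lower, at 1.61, 1.63 and 1.69 against 0.98, 0.87 and 0.92 (difference 0.72, SE 0.0555).

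Lipid genes were represented by a few large falls. Lipoprotein lipase (Lpl), which releases fatty acids from circulating lipid, was at 0.75, 0.76 and 0.74 in TAF-el4 and at 3.55, 3.41 and 3.54 in TAF-tib6, 6.74-fold lower (SE 0.137, adjusted p = 1.2e-10). Its second probe differed by -1.91. Cyp7b1, an oxysterol hydroxylase, was at 1.25, 1.16 and 1.08 against 3.36, 3.41 and 3.27 (difference -2.19, SE 0.150), and the cholesterol exporter Abca1 fell by 1.02 (SE 0.095). The biosynthetic genes of sterols and fatty acids moved little: 8 of 26 fell and 1 rose, all by less than 2-fold, led by the desaturase Scd2 (-0.63, SE 0.055), and 1 of the 8 falls was left with slide run as a block. Selenop, the plasma carrier of selenium, fell by 2.15 (SE 0.157), from 0.92, 0.84 and 0.81 to -1.29, -1.22 and -1.36.

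Glycolytic and hypoxia genes were split, 6 of 24 higher and 5 lower with a median of 0.04. The muscle enolase Eno3 rose by 1.31 (SE 0.085) and hexokinase 2 (Hk2) by 0.80 (SE 0.050), while the hypoxia-induced Ndrg1 fell by 0.71 (SE 0.092) and Bnip3 by 0.36 (SE 0.066). Ndrg1 lost its call with scaled log ratios (-0.28, adjusted p = 0.71) and Bnip3 with slide run as a block (adjusted p = 0.083), a fit that left 3 of the list higher and 1 lower. The cell cycle inhibitors of the Cdkn2 locus fell, Cdkn2b by 0.63 (SE 0.055) and Cdkn2a by 0.58 (SE 0.118), the latter at 0.27, 0.55 and 0.40 against 1.12, 0.94 and 0.91, with an adjusted p of 0.79 with slide run as a block. The p53 targets and inhibitors as a list gave 6 of 23 higher and 8 lower, and 3 and 3 with slide run as a block.

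Positional and lineage genes differed in few members. Of 31 Hox genes 3 rose and 6 fell, against 11.4% and 9.24% of all genes, so rises were no more frequent than over all genes. The 3 that rose were of the HoxA cluster and the falls lay in HoxB and HoxC, a split that was not tested. Hoxa7 was at 0.31, 0.23 and 0.32 in TAF-el4 and at -0.62, -0.52 and -0.56 in TAF-tib6 (difference 0.85, SE 0.047), and Hoxa10 rose by 0.77 (SE 0.051). Hoxb9 fell by 0.50 (SE 0.059). With slide run as a block the 3 rises kept their call and none of the falls did. Of 35 lineage factors 6 rose and 6 fell. Foxf2, a forkhead gene of mesenchyme, rose by 1.11 (SE 0.065), and the chondrogenic Sox9 and the mesenchymal Foxc1 fell by 0.85 (SE 0.065) and 0.78 (SE 0.055). Further probes of Sox9 differed by -0.82 and -0.02. Axon guidance genes gave 8 higher and 6 lower of 31 (4 and 3 with slide run as a block), with the ephrin receptor Epha4 lower by 1.09 (SE 0.046) and Epha2 higher by 0.63 (SE 0.050). A second probe of Epha4 differed by -0.42.

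**Figure D3:**
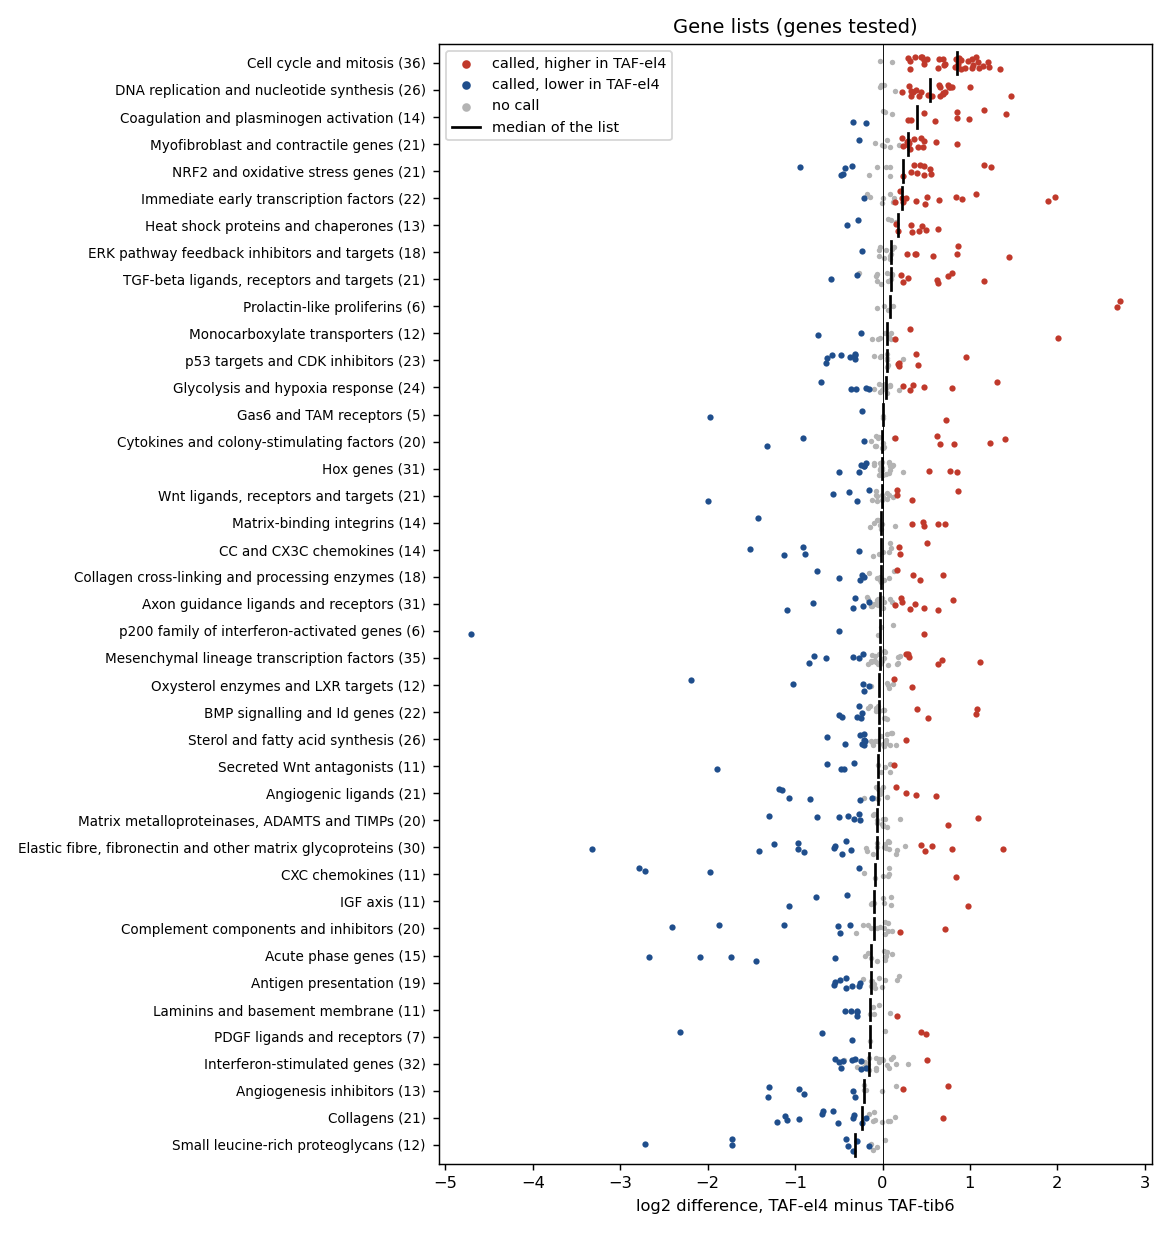
Log2 difference, TAF-el4 minus TAF-tib6, of each tested gene of 41 functional lists (number of genes in brackets), with the median of each list as a bar. The cell cycle list has the highest median, 0.85, and the small leucine-rich proteoglycans the lowest, -0.32.

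The levels of TAF-el4 and TAF-tib6 can be set beside those of the other 3 sources, which were often split among themselves. For 43 of the 150 genes NSF, TAF-tib42 and TAF-tib48 all lay on the TAF-tib6 side of the midpoint between TAF-el4 and TAF-tib6, and for 22 all on the TAF-el4 side. TAF-el4 and TAF-tib6 were each compared with the mean of NSF, TAF-tib42 and TAF-tib48 in the same fit. These comparisons share their 9 reference arrays, so their values are given side by side. The gap between them is the TAF-el4 minus TAF-tib6 difference, by which the 150 genes were picked. For those genes, calls in the picked direction and medians of opposite sign are therefore partly built in. Against that mean, 6455 genes were called in TAF-el4 (20.7%), 3711 higher (11.9%) and 2744 lower (8.79%). In TAF-tib6 6817 were called (21.8%), 3479 higher (11.1%) and 3338 lower (10.7%).

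Among the 73 genes at least 2-fold higher in TAF-el4 than in TAF-tib6, 69 rose in TAF-el4 against the mean of the other sources and 43 fell in TAF-tib6. The medians of the 73 were 0.87 for TAF-el4 and -0.28 for TAF-tib6. Cck differed from the mean of the others by 1.96 in TAF-el4 and by 0.22 in TAF-tib6, and Rrm2 by 1.34 and -0.13, with all 3 other sources on the TAF-tib6 side. Ptgs1 was the reverse, with -0.08 in TAF-el4, -1.48 in TAF-tib6 and all 3 others on the TAF-el4 side. Egr1 differed by 2.01 and 0.11, but the 3 sources in that mean were split, with NSF near TAF-el4 and the other two below TAF-tib6. The cell cycle list had medians of 0.50 and -0.24, with 33 members higher in TAF-el4 and 22 lower in TAF-tib6.

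Among the 77 genes at least 2-fold lower in TAF-el4, 52 fell in TAF-el4 against the others and 69 rose in TAF-tib6, with medians of -0.40 and 0.94. Postn differed by 0.00 in TAF-el4 and 1.25 in TAF-tib6, with all 3 other sources on the TAF-el4 side, and Selenop by -1.71 and 0.44, with all 3 on the TAF-tib6 side. Ifi202b differed by -0.83 and 3.88, and TAF-tib6 was the highest of the 5 sources. For other genes the mean joins sources that were apart. Cxcl12 differed by -0.03 and 1.94, yet NSF, at 2.01, lay above TAF-tib6. Cxcl1 differed by -2.06 and 0.72 and Saa3 by -1.92 and 0.74, yet TAF-tib48, at -0.96 and -1.70, lay below TAF-el4 for both while NSF and TAF-tib42 lay beside or above TAF-tib6. Interferon-stimulated genes were below the other sources in both, with medians of -0.56 in TAF-el4 and -0.35 in TAF-tib6. For 90 of the 150 genes TAF-el4 lay further from that mean than TAF-tib6, and for 60 TAF-tib6 lay further.

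**Figure D4:**
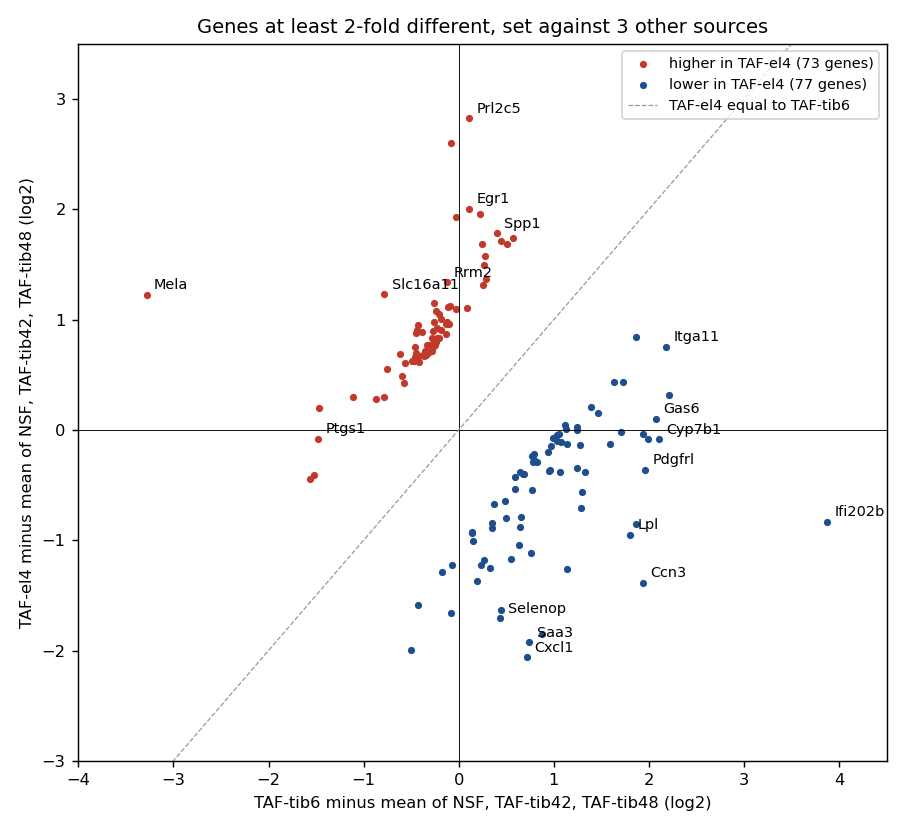
The 150 genes at least 2-fold different, by the log2 difference of TAF-tib6 (horizontal) and of TAF-el4 (vertical) from the mean of NSF, TAF-tib42 and TAF-tib48. Genes higher in TAF-el4 (red) spread mainly upward, with Prl2c5 highest, and genes lower in TAF-el4 (blue) mainly to the right, with Ifi202b furthest.

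The sources' labels can be set beside these levels. For 34 of the 150 genes, TAF-tib42 and TAF-tib48 both lay on the TAF-el4 side of the midpoint between TAF-el4 and TAF-tib6 and NSF on the TAF-tib6 side, as the words resistant and sensitive would place them. For 13 genes the order was the opposite. The share of either order over all genes was not computed, so these counts do not show a pattern particular to the 150. NSF arrays correlated at 0.931 to 0.949 with TAF-tib6 arrays over genes, and at 0.902 to 0.918 with TAF-el4 arrays. The 34 comprised 8 of the 73 higher genes, with Mela, Slc16a11 and Eno3 among them, and 26 of the 77 lower genes, with Ccn3, Ogn, Dcn, C3, C1s1, Cxcl12, Cyp7b1, Gas6, Flt1, Abca1, Adm, Igfbp2, Epha4, Col6a1 and Hp among them. For Ccn3 NSF stood at 0.004, nearer to TAF-tib42 at -0.37 than to TAF-tib6 at 1.55. The opposite order was held by 11 higher genes, with Egr1, Phlda1, Thbd, Spp1 and Fst among them, and by 2 lower genes. Egr1, for example, averaged -0.66 in NSF but -3.16 in TAF-tib42 and -2.55 in TAF-tib48, so the resistant sources held both its highest and its lowest levels. For the remaining genes NSF, TAF-tib42 and TAF-tib48 did not divide by label.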

How the data were processed

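The deposited scanner files give each spot's intensity in both dyes, its local background and flags set to 0 or 1. They also give the log10 ratio (Cy5 over Cy3) that Agilent Feature Extraction 8.5.1.1 computed after background subtraction, detrending and LOWESS, per the file headers. The authors' deposited table of log2 ratios followed the scanner's ratio with a slope of 1. Intensities were background-corrected in limma 3.58.1 under R 4.3.3 (normexp, offset 50) and normalised by loess within arrays; control spots had weight 0, flagged spots were dropped, saturated spots kept. A RefSeq table (GRCm38.p6) gave names by accession to 22214 of the 41174 probes; the rest were named from the array's own name or description columns. Where probes shared a gene, the brightest on average was kept. Testing required the flag for Cy5 well above background in every replicate of 1 or more sources. One fit of 15 arrays (lmFit, eBayes, two-sided, Benjamini-Hochberg) gave all comparisons. The fit and its calls were tried on simulated log ratios that held no effect of slide run. Background correction, normalisation, probe choice and filter were not part of that trial. The number of arrays limits the precision.

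Named were the 15 highest and 15 lowest called differences without overlap between the sources (clone, RIKEN, predicted and accession names passed over), up to 5 called members of each of 41 functional and 10 cell marker lists that the text describes, and Pdgfc, Pdgfa and Vegfa. Col1a1, Col1a2, Vim, Fap and the markers of other cells were named for the check of the tissue. The arrays, lists and rule were chosen with earlier results of these data known. Alternatives covered normalisation, background, filter, probe choice, blocks and leaving out arrays. Some genes that the rule names are not reported here.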

Additional observations from a re-analysis of the deposited data

How the results depend on the processing

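Of the 223 named genes, 125 kept direction and call in every alternative run, the 30 leading genes among them, and 202 kept them without each of the 6 arrays in turn. The settings that ended most calls were slide run as a fixed block, under which 148 of the 223 kept theirs, and log ratios scaled between arrays, under which 174 did; the cause was not tested. The scaled log ratios turned Thy1 to -0.0186, Jchain to 0.15 and Krt8 to 0.37, the slide block turned Jchain to 0.0384, and the Cy5 channel alone turned S100b to -0.19. With slide run as a fixed block, 1720 genes were called between TAF-el4 and TAF-tib6 (1055 higher, 665 lower) and 2108 between TAF-tib6 and the other 3 sources (1056 higher, 1052 lower). As a random block, added after the data were seen, slide run left 6831. With scaled log ratios TAF-el4 differed from the other 3 in 3940 genes (2329 higher, 1611 lower). The 2-fold counts were 306 between TAF-el4 and TAF-tib6 with the scanner's ratio, 308 with the authors' table and 229 with scaled log ratios. For TAF-el4 against the other 3 they were 223 and 221 with the scanner's ratio and the authors' table, and for TAF-tib6 208, 209 and, scaled, 150. Without each array in turn, 5146 to 5813 genes were called between TAF-el4 and TAF-tib6. With the replicate block 6236 were called; same-numbered arrays deviated together at correlations of -0.095 to -0.028, so the numbers do not pair the arrays. A block for scan date was not run, since all arrays share 1 scan day. Dim signal limits what can be seen: 17 list members were not well above background on all 6 arrays.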
